A study of Mus musculus with 6 samples.

Results

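Collagen VI and the elastic microfibril are matrix structures whose genes were followed here through 9 members, taken by their symbols from the 31276 genes of the deposited count matrices. The members were Col6a1, Col6a2 and Col6a3 (chains of collagen VI), Fbn1 and Mfap5 (fibrillin microfibril), Fbln1 and Fbln2 (fibulins), Eln (elastin) and Ltbp2 (a fibrillin-binding protein), and all 9 were listed in the data. The rule matches symbols alone, but the list itself was drawn up with earlier results of these data known.

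In 6 C57BL/6 mice 1 ureter was obstructed by surgery (UUO, a model of kidney fibrosis), and 7 days later the obstructed kidney was dissociated for single-cell RNA sequencing with the GEXSCOPE kit of Singleron. All 6 mice carried the obstruction, so neither group is an unobstructed kidney, and the sources used here give no sex, age, dose or route. The groups were mice that received SH045 (n = 3) and mice that received Vehicle (n = 3), with 1 library per mouse. By the title of the series, SH045 stands for inhibition of the cation channel TRPC6, and the question is how the obstructed kidney differs when it is given.

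Collagen VI is assembled inside the cell from 3 different chains and forms beaded filaments that link cells and basement membranes to the surrounding interstitial matrix. Elastic fibres form outside the cell, where microfibrils of fibrillin serve as a scaffold on which elastin is deposited and cross-linked by lysyl oxidases. In kidney both structures lie in the interstitium and in the walls of vessels, and fibroblasts, pericytes and smooth muscle cells are among their known makers.

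The libraries held 21186872 to 32256602 UMIs (unique molecular identifiers, 1 per captured transcript), and 23578 of 25978 barcodes had at least 200 genes and at most 50% mitochondrial UMIs. Barcodes over that mitochondrial limit made up 10.3%, 10.4% and 16.5% of SH045 libraries 1, 2 and 3 and 4.17%, 5.29% and 3.56% of Vehicle libraries 1, 2 and 3. The kept cells included 178 barcode sequences found in 2 or more libraries. Single cells were given a class from lists of marker genes that contained no member, and 419 cells were fibroblasts, 418 of which also lay in a cluster of that class. That cluster held 497 cells. Clusters were named from the same marker lists, so the overlap is no independent check. Gated fibroblasts numbered 119, 149 and 81 in the SH045 and 19, 26 and 25 in the Vehicle libraries, or 3.15 ± 0.80% and 0.557 ± 0.086% of kept cells (SD, n = 3 each). The gate was set on the 10 fibroblast markers, so their detection in these cells is no check. Of the other lists, 5 of 5 adipocyte markers and 3 of 4 mesothelial markers were at 0. The median fibroblast held 25% of the pericyte and smooth muscle markers, 16.7% of the macrophage markers and 14.3% of the monocyte and granulocyte markers. It also held 12.5% of the endothelial markers, and the median for each remaining list was 0%.

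The 3 collagen VI genes lie on the minus strand of the mouse genome (mm10). Col6a1 is at chr10:76708792-76726168 and Col6a2 at chr10:76595762-76623630, 85161 bases apart, while Col6a3 is at chr1:90765923-90843971. The 120 bases just before the annotated start of each gene are printed because Col6a2 passed the test in fibroblasts and Col6a3, a chain of the same protein, did not. They are RefSeq sequence (GRCm38.p6, minus strand, 5′ to 3′), lie outside every annotated exon and hold 53.3%, 60.0% and 63.3% G or C in the order Col6a1, Col6a2, Col6a3.
Col6a1 (chr10:76726169-76726288): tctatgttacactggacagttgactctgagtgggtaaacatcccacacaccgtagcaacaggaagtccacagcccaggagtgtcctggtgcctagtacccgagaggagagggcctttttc
Col6a2 (chr10:76623631-76623750): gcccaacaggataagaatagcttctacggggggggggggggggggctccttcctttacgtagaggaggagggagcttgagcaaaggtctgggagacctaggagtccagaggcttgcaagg
Col6a3 (chr1:90843972-90844091): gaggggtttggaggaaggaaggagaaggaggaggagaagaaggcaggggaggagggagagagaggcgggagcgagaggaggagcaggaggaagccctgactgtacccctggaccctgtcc
Read on this strand, 78.3% of the Col6a3 window was A or G, against 51.7% of the Col6a1 and 65.0% of the Col6a2 window. Both strands were searched for the AP-1 motif TGANTCA, for the TATA box as TATAAA, for the GC box as GGGCGG, for the SMAD element as CAGACA and for the TEAD site as GGAATG. None of these letters occurred in the 3 printed windows, so no base is in capitals. In the 120 bases before each of 32851 starts annotated by RefSeq, the motifs occurred in 3.41%, 6.34%, 26.5%, 7.86% and 5.82% of windows, in that order. RefSeq places its start of Col6a1 and 1 of its 2 starts of Col6a2 inside the genes as given above, and the 250 bases before those starts were searched too. The Col6a1 window held 1 AP-1 motif, found in 6.75% of all windows of that length. The Col6a2 window held 3 GC boxes and 1 TEAD site. At least 1 GC box was found in 32.7% and at least 1 TEAD site in 12.6% of all windows of that length. The share with 3 GC boxes was not computed. Of the other 250-base windows of these genes, that of Col6a2 held 1 GC box and that of Col6a3 held 0 of the 5 motifs.

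Gated fibroblasts held most of the UMIs of every member in the SH045 libraries, but of only 6 of the 9 members in the Vehicle libraries. Their share of all member UMIs was 87.5%, 88.1% and 81.7% in SH045 and 64.5%, 50.3% and 60.9% in Vehicle libraries 1, 2 and 3. For Mfap5, a glycoprotein that decorates fibrillin microfibrils, the share was 97.0%, 94.7% and 93.9% with SH045 and 63.0%, 91.7% and 87.5% with Vehicle. For Eln it was 77.8%, 90.0% and 69.3% with SH045 but 13.7%, 19.4% and 28.9% with Vehicle. For Fbln2 it was 73.8 ± 15.1% with SH045 and 30.7 ± 13.5% with Vehicle, and for Ltbp2 80.8 ± 8.29% and 35.5 ± 13.8% (SD, n = 3 each). In Vehicle libraries these 3 members thus had most of their UMIs outside gated fibroblasts. The collagen VI chains were held by fibroblasts at group means of 82.5% to 87.0% with SH045 and 68.5% to 76.2% with Vehicle.

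Endothelium held 14.8 ± 10.2% of the Fbln2 UMIs with SH045 and 27.3 ± 9.82% with Vehicle, and 6.66 ± 1.99% and 20 ± 12.3% of those of Eln. It held only 4, 3 and 4 UMIs of Col6a1, Col6a2 and Col6a3 over all libraries. Pericytes and smooth muscle held 9.28 ± 5.53% of the Col6a3 UMIs with SH045 and 9.85 ± 3.4% with Vehicle. Their share of the Eln UMIs was 3.43 ± 0.89% and 18.5 ± 21.8%, the latter with 43.1% in 1 Vehicle library.

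**Figure D1:**
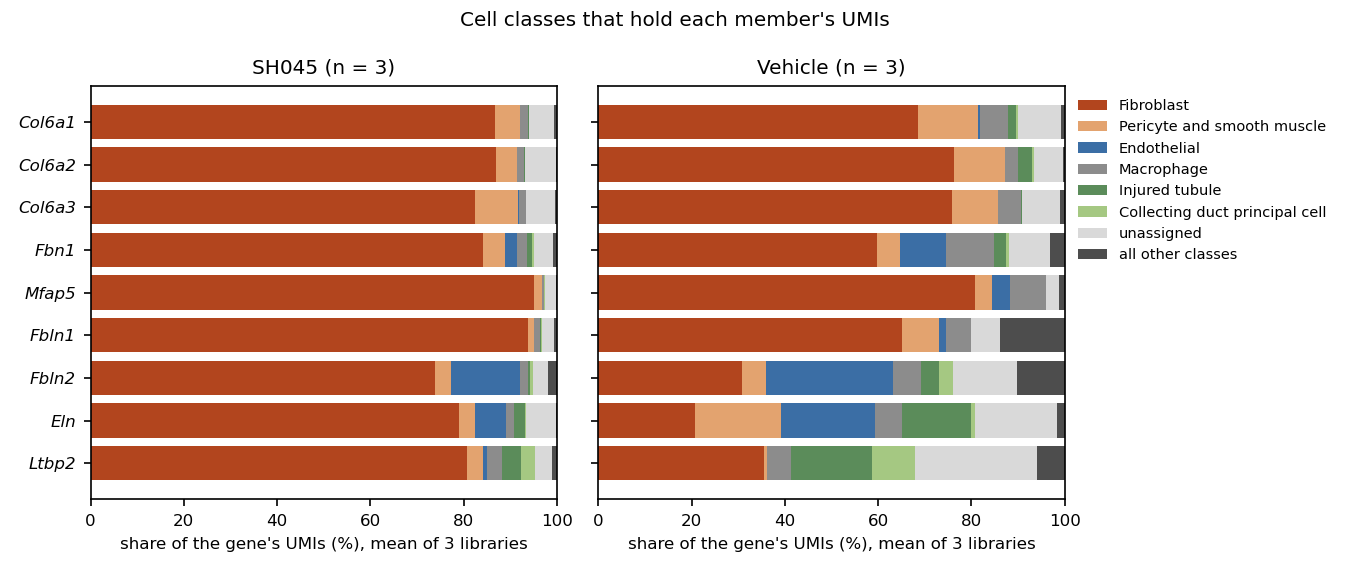
Share of each member's UMIs in percent, as the mean of 3 libraries per group, by the cell class that holds them (bar segments; left SH045, right Vehicle). Fibroblasts hold over 70% of each member with SH045, while with Vehicle they hold 20.7% of the Eln, 30.7% of the Fbln2 and 35.5% of the Ltbp2 UMIs.

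The share of fibroblasts with at least 1 UMI, here without equal depth, was highest for the collagen VI chains and Fbn1, in an order that differed between the groups. With SH045 it was 88.8% for Col6a1, 87.1% for Fbn1, 86.5% for Col6a2 and 84.0% for Col6a3 of 349 cells. With Vehicle it was 94.3% for Col6a3, 88.6% for Fbn1, 78.6% for Col6a1 and 74.3% for Col6a2 of 70 cells. Fbln1 was found in 70.5% and Fbln2 in 60.7% of SH045 cells, and in 50% and 70% of Vehicle cells. Mfap5 (45.3% and 28.6%), Eln (36.4% and 18.6%) and Ltbp2 (30.7% and 31.4%) were found least often in both groups. Fibroblasts had a median of 5721 UMIs per cell. In 10786 macrophages, at a median of 3621.5 UMIs, each member was found in 0.11% to 0.56% of cells. Whether these UMIs came from the macrophages themselves was not tested. Endothelial cells stood well above the macrophage shares for Fbln2 (29.7% of 414 cells), Eln (16.4%) and Fbn1 (15.5%), at a median of 3686 UMIs.

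All 9 members were higher with SH045 when UMIs were summed over a whole library, and 7 of the 9 rose by the test. In these sums, more fibroblasts and more RNA per fibroblast cannot be told apart. Other classes that hold member UMIs were larger with SH045 as well. Endothelium made up 2.80 ± 0.53% of kept cells with SH045 and 0.859 ± 0.151% with Vehicle, and pericytes and smooth muscle 0.498 ± 0.170% and 0.192 ± 0.043% (SD, n = 3 each). In whole-library sums the 10 fibroblast markers stood at 1083 to 2357 CPM (UMI counts scaled to a common total per library) with SH045 and 190 to 264 CPM with Vehicle, the 8 endothelial markers at 162 to 360 and 69.3 to 75.3 CPM, and the 8 pericyte and smooth muscle markers at 153 to 248 and 48.1 to 83.5 CPM, with none at 0. Their part in the members' sums was not tested beyond the sums without fibroblasts and pericytes given further on. Across all 16532 genes tested, 4.31% were called by edgeR at an adjusted p under 0.05, 2.95% were called higher, and 34.8% had every SH045 library above every Vehicle library. The median log2 change was 3.05 over the members and 0.013 over all genes tested.

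Among the collagen VI chains, Col6a3 stood at 82.4, 48.0 and 85.4 CPM in SH045 libraries 1, 2 and 3 and at 12.8, 8.11 and 19.2 CPM in Vehicle libraries 1, 2 and 3. The groups did not overlap, and the log2 change, with its SE, was 2.18 ± 0.35 (edgeR adjusted p = 0.0247). Col6a1 rose by 3.11 ± 0.21 (edgeR adjusted p = 0.00402) and Col6a2 by 3.58 ± 0.19 (edgeR adjusted p = 0.000958).

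Fbn1, the backbone protein of microfibrils, stood at 41.0, 51.2 and 24.9 CPM with SH045 and 4.48, 6.69 and 5.87 CPM with Vehicle. Its log2 change was 2.54 ± 0.28 (edgeR adjusted p = 0.00721). Mfap5 stood at 52.1, 59.2 and 8.56 CPM with SH045 and 1.37, 0.772 and 0.915 CPM with Vehicle. SH045 library 3 was far below the other SH045 libraries for Mfap5 but above every Vehicle library, and the change was 5.08 ± 0.80 (edgeR adjusted p = 0.0270).

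Fbln1, a fibulin that binds fibronectin and basement membrane proteins, stood at 25.7, 35.4 and 10.1 CPM with SH045 and 2.39, 1.22 and 1.72 CPM with Vehicle (log2 change 3.52 ± 0.51, edgeR adjusted p = 0.0193). Its relative Fbln2, which binds elastin and fibrillin, stood at 39.8, 42.3 and 15.1 CPM against 5.35, 9.30 and 5.42 CPM (2.03 ± 0.41, edgeR adjusted p = 0.0451). In both, SH045 library 3 was the lowest of its group. Eln, the elastic core of the fibre, stood at 23.0, 50.9 and 7.19 CPM with SH045 and 2.60, 2.32 and 3.43 CPM with Vehicle. It spread widely within SH045 and missed the threshold (3.05 ± 0.70, edgeR adjusted p = 0.0628). Ltbp2 stood at 10, 6.19 and 4.04 CPM against 2.39, 3.28 and 2.14 CPM and also missed it (1.12 ± 0.33, edgeR adjusted p = 0.0884).

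Leaving out 1 library moved the count of called members in these sums. It fell to 3 of 9 without SH045 library 1, to 3 without Vehicle library 1, and to 4 without Vehicle library 2 or Vehicle library 3. Of all genes, 119 to 597 were called in the 6 such fits, against 713 with all libraries. Col6a1, Col6a2 and Fbn1 were called in each of the 6.

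Of 28 partner genes of the same structures, 25 were tested in whole-library sums, and 12 rose, 0 fell and 18 had every SH045 library above every Vehicle library. The 4 with the smallest p were Fbn2, Emilin1, Vcan and Ltbp4. Fbn2, a fibrillin of growing tissue, was at 5.50 ± 0.69 CPM with SH045 and 0.567 ± 0.208 CPM with Vehicle (SD, n = 3 each; log2 change 2.99 ± 0.29, edgeR adjusted p = 0.00608). Emilin1, an elastic fibre glycoprotein, was at 28.1 ± 3.04 and 7.73 ± 0.24 CPM (1.62 ± 0.13, edgeR adjusted p = 0.00423). Vcan, a large proteoglycan that binds fibrillin, rose by 2.07 ± 0.26 (edgeR adjusted p = 0.00881), and Ltbp4, which takes part in elastic fibre assembly, by 1.23 ± 0.17 (edgeR adjusted p = 0.0117).

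With the gated fibroblasts left out of the sums, the members were still higher with SH045 as a group. The 9 together stood at 46.4, 49.5 and 44.6 CPM with SH045 and 13.8, 19.1 and 18.7 CPM with Vehicle. Col6a1 and Col6a2 rose (log2 change 1.96 ± 0.22 and 2.69 ± 0.30, edgeR adjusted p = 0.0229 for both), against 0.695% of all genes tested that were called. Without pericytes and smooth muscle as well, edgeR called 0 of 9 members, against 0.349% of all genes. In each of these fits 7 of the 9 members had an unadjusted edgeR p under 0.05. The share of all genes under that unadjusted limit was not computed, so these counts have no background. The 2361 cells given no class held 5.28% of the Col6a1, 6.11% of the Col6a2 and 6.99% of the Col6a3 UMIs. In macrophages, Col6a1 was at 5.03, 3.15 and 0.908 CPM with SH045 and 1.04, 0.813 and 0.245 CPM with Vehicle. The part of free RNA or mixed barcodes in these remainders was not tested.

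Ltbp2 alone was lower with SH045 once fibroblasts were left out. This gene, whose protein binds fibrillin without storing TGF-beta, stood there at 1.13, 1.27 and 1.14 CPM with SH045 and 1.33, 1.91 and 1.73 CPM with Vehicle. The groups did not overlap, as for 4.83% of all genes tested in that direction, but the change did not pass the test (−0.72 ± 0.27, edgeR adjusted p = 0.162). Fibroblasts held 89.3%, 80.3% and 72.7% of the Ltbp2 UMIs of the SH045 libraries and 44.7%, 42.2% and 19.6% of those of the Vehicle libraries.

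**Figure D2:**
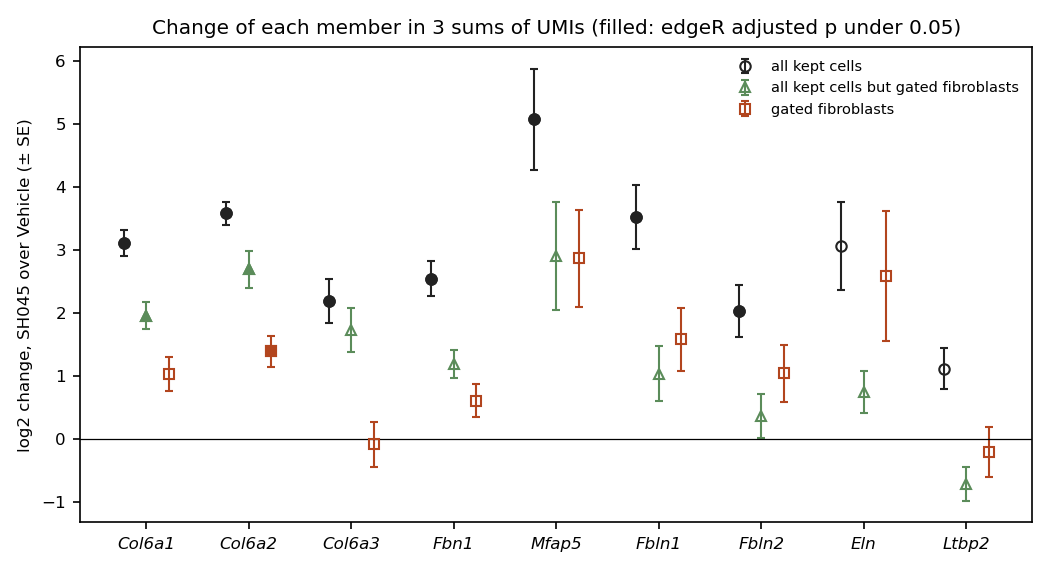
log2 change of SH045 over Vehicle with its SE for each member, in all kept cells (circles), in all kept cells but gated fibroblasts (triangles) and in gated fibroblasts (squares). Filled symbols passed the edgeR test: 7 of 9 members in all kept cells, Col6a1 and Col6a2 outside fibroblasts, and Col6a2 in fibroblasts, while Ltbp2 lies below 0 outside fibroblasts (−0.72).

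Within fibroblasts fewer members passed the test. Here UMIs were summed over the gated fibroblasts of each library, which takes their number out of the comparison. Of 9 members, 1 rose, Col6a2, against 0.119% of the 5866 genes tested that edgeR called and 0.102% called higher. In 4 of the 9 (Col6a1, Col6a2, Mfap5 and Eln) every SH045 library was above every Vehicle library, as for 6.53% of all genes tested. The median log2 change was 1.04 over the members and 0.002 over all genes tested.

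Col6a2 stood at 644, 1136 and 1100 CPM of fibroblast UMIs in SH045 libraries 1, 2 and 3 and at 452, 326 and 390 CPM in Vehicle libraries 1, 2 and 3. The lowest SH045 library was above the highest Vehicle library, and the group means were 960 ± 274 and 389 ± 62.9 CPM (SD, n = 3 each). The log2 change was 1.39 ± 0.24 (edgeR adjusted p = 0.0364), and without SH045 library 2 it was 1.21 with an adjusted p of 0.121. Without Vehicle library 1, 2 or 3 the edgeR adjusted p was 0.223, 0.403 or 0.229, and with the trend on transcript length removed it was 0.127.

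Col6a1, the partner chain encoded next to Col6a2, stood at 748, 1292 and 1103 CPM with SH045 and 629, 347 and 666 CPM with Vehicle. The groups did not overlap, but the gap between SH045 library 1 and Vehicle library 3 was small, and the change missed the threshold (1.03 ± 0.27, edgeR adjusted p = 0.25). Col6a3, the longest chain, stood at 1461, 975 and 2232 CPM with SH045 and 2014, 978 and 2196 CPM with Vehicle. Its groups overlapped throughout, with a low library in each, and the log2 change was −0.09 ± 0.35 (edgeR adjusted p = 0.966).

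Fbn1 stood at 714, 1152 and 636 CPM in SH045 fibroblasts and 511, 710 and 510 CPM in Vehicle fibroblasts. The groups overlapped and the change was 0.61 ± 0.26 (edgeR adjusted p = 0.531). Mfap5 stood at 1041, 1436 and 255 CPM with SH045 and 167, 116 and 126 CPM with Vehicle. All SH045 libraries were above, but library 3 was closer to the Vehicle libraries than to SH045 libraries 1 and 2, and the change of 2.86 ± 0.78 did not pass (edgeR adjusted p = 0.463).

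Fbln1 stood at 501, 855 and 297 CPM with SH045 and 324, 126 and 168 CPM with Vehicle (1.58 ± 0.49, edgeR adjusted p = 0.463). Fbln2 stood at 693, 872 and 272 CPM against 442, 247 and 282 CPM (1.04 ± 0.45, edgeR adjusted p = 0.570). For both fibulins, SH045 library 3 lay within the Vehicle range while libraries 1 and 2 lay above it. Eln stood at 368, 1175 and 159 CPM with SH045 and 68.8, 73.6 and 156 CPM with Vehicle, where SH045 library 3 and Vehicle library 3 were nearly equal (2.59 ± 1.03, edgeR adjusted p = 0.583). Ltbp2 stood at 184, 127 and 93.5 CPM against 206, 226 and 66.0 CPM, with overlapping groups (−0.21 ± 0.40, edgeR adjusted p = 0.922).

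**Figure D3:**
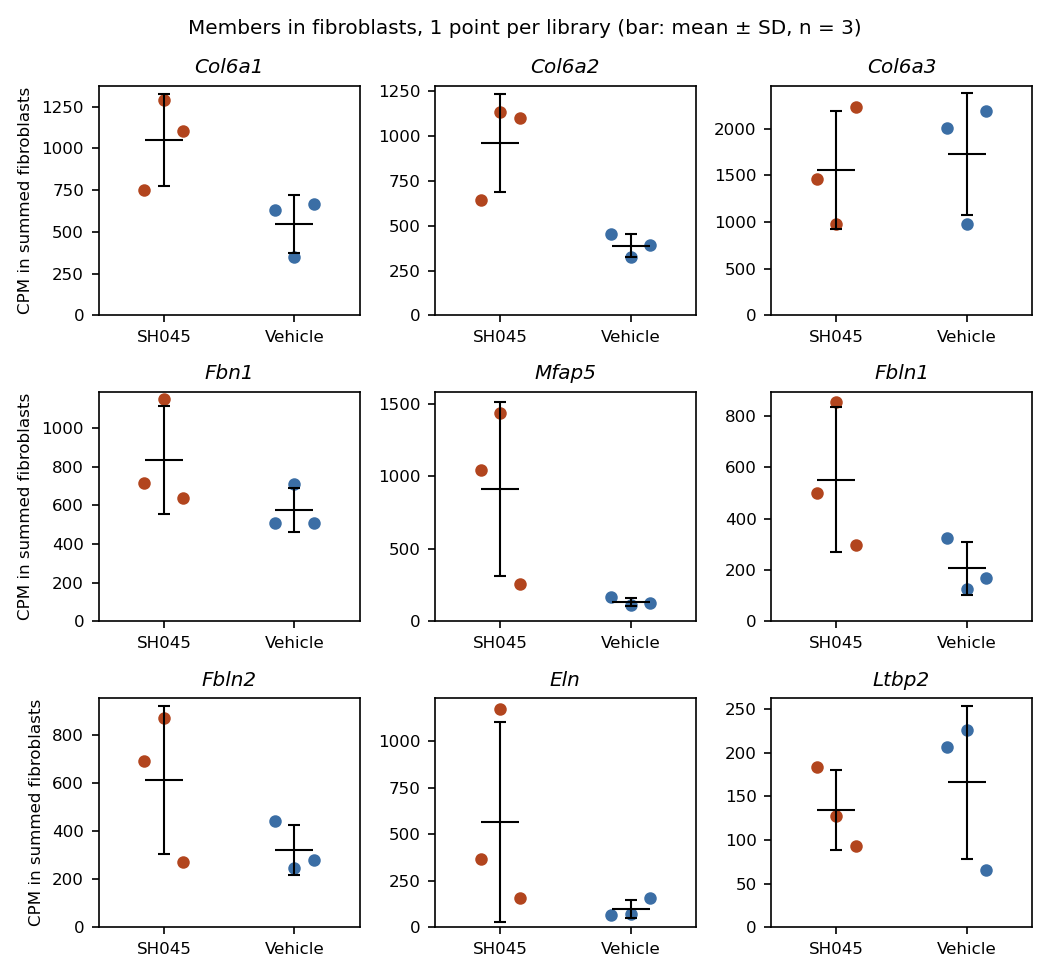
CPM of each member in the summed fibroblasts of each library (points) with mean and SD (bars, n = 3 per group). Col6a2 separates the groups (644 CPM or more against 452 CPM or less), Col6a3 does not, and SH045 library 3 is the lowest SH045 point for Mfap5, Fbln1, Fbln2 and Eln.

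SH045 library 3 also stood apart in markers of 1 kind of fibroblast. Adventitial fibroblasts, the cells that sheathe vessels, were followed by 6 genes (Pi16, Dpp4, Clec3b, Scara5, Sema3c and Cd248). The summed level of these genes was 963, 1744 and 242 CPM in SH045 and 108, 231 and 120 CPM in Vehicle fibroblasts. Of the 6 genes, 0 were at 0 in SH045 fibroblasts and 2 (Clec3b and Scara5) in Vehicle fibroblasts. The list of 10 fibroblast markers summed to 28742 to 53357 CPM with SH045 and 18848 to 27337 CPM with Vehicle. Endothelial markers summed to 137 to 210 CPM against 210 to 472 CPM. The part of these differences in the members' values was not tested beyond the split below, and SH045 library 3 had the largest share of barcodes over the mitochondrial limit (16.5%).

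Leaving out SH045 library 3 raised the count of called members in fibroblasts to 4 of 9 (Col6a2, Mfap5, Fbln1 and Fbln2), and the share of all genes called was then larger as well, at 2.14% of 3871 against 0.119%. Without SH045 library 2, or without Vehicle library 1, 2 or 3, edgeR called 0 of 9. Of all genes, 5 were called without SH045 library 2 and 0 without Vehicle library 1, 2 or 3. DESeq2 called 2 members (Col6a2 and Mfap5), among 35 of 6217 genes. In the edgeR fit of all 6 libraries, 5 of 9 members had an unadjusted p under 0.05. The share of all genes under that unadjusted limit was not computed. Only 70 fibroblasts came from Vehicle mice, which limits what these sums can show.

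None of 22 partner genes tested in fibroblasts passed the edgeR test, and 4 of the 22 had every SH045 library above every Vehicle library. Fbn2 came closest, at 126 ± 21.7 CPM with SH045 and 36.6 ± 15.2 CPM with Vehicle (SD, n = 3 each; 1.82 ± 0.35, edgeR adjusted p = 0.0630). Lox, the enzyme that cross-links collagen and elastin, was at 923 ± 421 and 434 ± 27.6 CPM (1.16 ± 0.33, edgeR adjusted p = 0.347), followed by its relative Loxl1 (0.61 ± 0.25, edgeR adjusted p = 0.499) and the microfibril protein Mfap4 (2.45 ± 0.89, edgeR adjusted p = 0.532). Among reference genes of fibroblasts, Col1a1 had a change of 1.07 ± 0.24 (edgeR adjusted p = 0.160), close in size to that of Col6a1, and Pdgfra one of 0.22 ± 0.23 (edgeR adjusted p = 0.836).

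The ratio of Col6a3 to the other chains was lower in each SH045 library than in each Vehicle library. Col6a3 UMIs per Col6a1 UMI in fibroblasts came to 1.95, 0.755 and 2.02 in SH045 libraries 1, 2 and 3 and to 3.20, 2.82 and 3.30 in Vehicle libraries 1, 2 and 3. The means were 1.58 ± 0.71 and 3.11 ± 0.25 (SD, n = 3 each), and SH045 library 2 was the lowest. Col6a3 per Col6a2 UMI was 2.27, 0.858 and 2.03 against 4.46, 3.00 and 5.63, again without overlap. Col6a2 per Col6a1 UMI overlapped, at 0.912 ± 0.074 and 0.748 ± 0.179. UMIs were not scaled by transcript length, so these ratios compare libraries and do not give the ratio of chains in the protein.

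Within the microfibril, Mfap5 UMIs per Fbn1 UMI came to 1.46, 1.25 and 0.402 with SH045 and 0.327, 0.163 and 0.247 with Vehicle, while Eln per Fbn1 UMI overlapped at 0.595 ± 0.391 and 0.181 ± 0.109. The 5 ratios given here and above were chosen after their values were seen. An exact permutation test over them gave no adjusted p under 0.05 (smallest 0.167), and 3 against 3 libraries could not give one. Leaving out a library cannot make groups that lie apart overlap, so it is no check on the separation. With each library left out in turn, SH045 minus Vehicle was −1.75 to −1.12 for Col6a3 per Col6a1 and 0.578 to 1.11 for Mfap5 per Fbn1. For both ratios the groups stayed apart with classes from clusters, with a stricter gate and with the top 5% of doublet scores removed. They overlapped once cells with an adventitial transcript were left out (means of 2.22 and 2.62 for Col6a3 per Col6a1, and of 0.405 and 0.207 for Mfap5 per Fbn1).

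**Figure D4:**
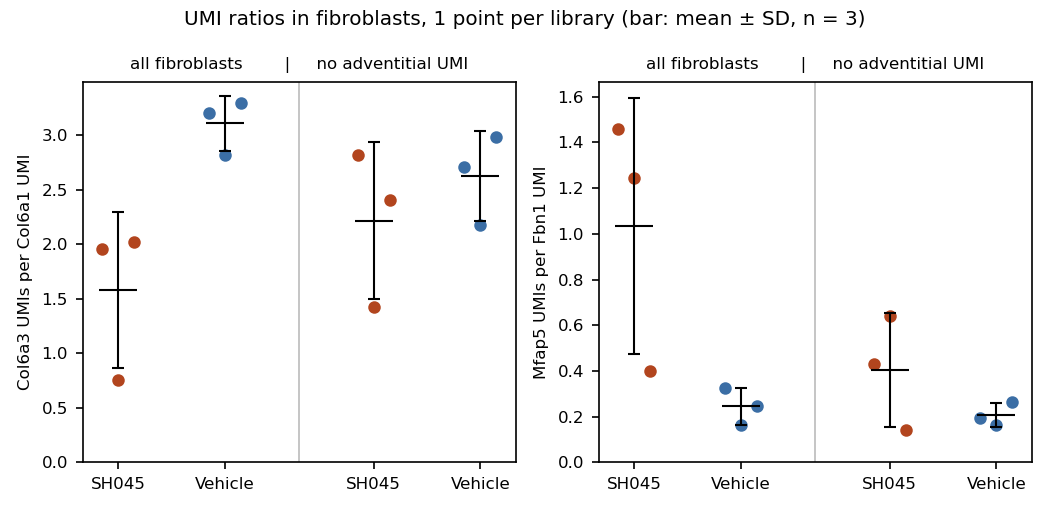
Col6a3 UMIs per Col6a1 UMI (left) and Mfap5 UMIs per Fbn1 UMI (right) in each library's fibroblasts (points; bars are mean and SD, n = 3), for all fibroblasts and for those with no UMI of the 6 adventitial genes. The groups do not overlap in all fibroblasts (1.58 against 3.11 and 1.04 against 0.246 on average) and overlap in the remaining cells.

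The fibroblasts were then split by adventitial transcripts. A UMI of at least 1 of the 6 genes was found in 197 of 349 SH045 fibroblasts (56.4%) and in 30 of 70 Vehicle fibroblasts (42.9%), and cells with such a UMI were deeper, at a median of 6473 against 4894.5 UMIs with SH045. Among SH045 cells with an adventitial UMI, Mfap5 stood at 1484, 1818 and 439 CPM in libraries 1, 2 and 3, and among those without at 209, 389 and 75.9 CPM. Eln stood at 535, 1537 and 101 CPM with and 54.5, 180 and 214 CPM without, so its order was turned in library 3. Col6a3 went the other way, at 1202, 786 and 1497 CPM with and 1948, 1492 and 2950 CPM without an adventitial UMI.

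Of the 349 SH045 fibroblasts, 159 held Cd248, 87 Pi16, 46 Clec3b, 37 Scara5, 34 Sema3c and 19 Dpp4. Of the 70 Vehicle fibroblasts, 27 held Cd248, 8 Pi16, 1 Sema3c, 1 Dpp4 and 0 Clec3b or Scara5. Cd248 was thus held by 159 of the 197 SH045 cells and 27 of the 30 Vehicle cells with an adventitial UMI. The split rests largely on this gene and need not take like cells in both groups. Whether cells with Cd248 alone are adventitial was not tested. In Vehicle fibroblasts the same split gave other values. Mfap5 stood at 320, 121 and 146 CPM in the 30 cells with and 77.8, 108 and 107 CPM in the 40 cells without an adventitial UMI. Col6a3 stood at 3013, 1060 and 1943 CPM with and 1431, 851 and 2442 CPM without, so only Vehicle library 3 had the order of the SH045 libraries. Each of these sums rests on 7 to 16 cells.

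Col6a2 was higher with SH045 on both sides of the split. Its means were 934 ± 295 and 345 ± 141 CPM among cells with an adventitial UMI and 928 ± 317 and 455 ± 39.7 CPM among those without (SD, n = 3 each), and the groups did not overlap in either. Fitted over the cells without one, the change was 1.06 ± 0.27 and no longer passed (edgeR adjusted p = 0.196). Mfap5 was at 1247 ± 719 against 195 ± 109 CPM with an adventitial UMI, without overlap, and at 225 ± 157 against 97.5 ± 17.1 CPM without one, where the groups overlapped.

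Single cells showed which members occurred together. Each fibroblast was thinned to 2000 UMIs, a depth that all 419 reached, and the 349 SH045 fibroblasts were divided into 137 with an Mfap5 UMI and 212 without. Fbln2 was found in 69.3% of the cells with Mfap5 and 27.4% of those without, Eln in 38.0% and 10.8%, and Ltbp2 in 29.2% and 8.96%. Fbln1 was found in 63.5% and 40.6%, Fbn1 in 77.4% and 61.3%, and Col6a1 in 82.5% and 69.3%. Over the 3 libraries together, Col6a3 was the only member found less often beside Mfap5, in 50.4% of the cells with it and 84.9% of those without.

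The direction for Col6a3 was the same in the 3 SH045 libraries and its size was not. Its share was 69.0% of 42 cells with Mfap5 and 90.9% of 77 without in library 1, and 36.9% of 84 and 76.9% of 65 in library 2. In library 3 it was 81.8% of 11 and 85.7% of 70 cells, a small gap on few cells. Fbln2 was found more often beside Mfap5 in each library (64.3% and 35.1%, 76.2% and 20%, 36.4% and 25.7%), as were Ltbp2 (45.2% and 7.79%, 20.2% and 10.8%, 36.4% and 8.57%) and Eln (33.3% and 9.09%, 44.0% and 16.9%, 9.09% and 7.14%). In Vehicle mice 11 fibroblasts held Mfap5 and 59 did not. Col6a3 was found in 72.7% and 79.7% of them, Fbln1 in 45.5% and 22.0%, Eln in 18.2% and 10.2% and Fbn1 in 72.7% and 66.1%, in the order of the SH045 cells. Fbln2 (18.2% and 37.3%), Ltbp2 (9.09% and 16.9%), Col6a1 (54.5% and 64.4%) and Col6a2 (36.4% and 45.8%) had the opposite order. Cells of a library share their source, so these shares are descriptions without a test.

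**Figure D5:**
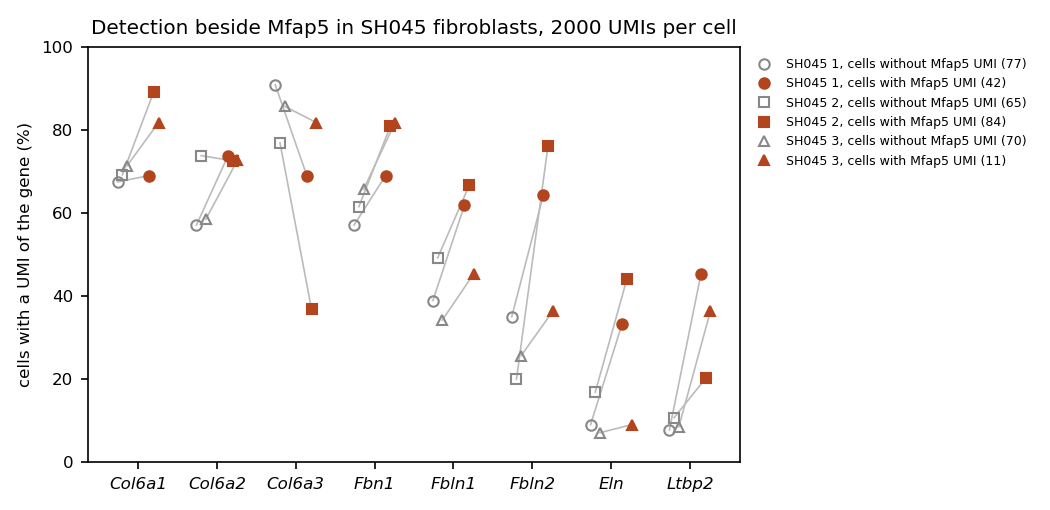
Percent of SH045 fibroblasts, thinned to 2000 UMIs, with a UMI of each other member among cells without (open) and with (filled) an Mfap5 UMI, for libraries 1 (circles), 2 (squares) and 3 (triangles), with cell numbers in the legend. Col6a3 is lower at the filled than at the open symbol in each library (36.9% against 76.9% in library 2), while Fbln1, Fbln2, Fbn1, Eln and Ltbp2 are higher beside Mfap5.

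The share of fibroblasts with a UMI was compared at equal depth. After thinning, Col6a2 was found in 63.0%, 73.2% and 60.5% of SH045 and 47.4%, 38.5% and 48.0% of Vehicle fibroblasts, and Fbln1 in 47.1%, 59.1% and 35.8% against 26.3%, 19.2% and 32.0%. In these 2 of 9 members every SH045 library was above every Vehicle library, as in 5.88% of 5866 genes, and the exact permutation p was 0.1 for both (two-sided), the smallest that 3 against 3 allows. Without thinning, Col6a2 was found in 85.9 ± 4.76% and 72.9 ± 13.0%, and Fbln1 in 69.0 ± 7.39% and 50.3 ± 7.13% (SD, n = 3 each). Col6a1 was found in 68.1%, 80.5% and 72.8% of thinned SH045 cells against 73.7%, 50% and 68.0%, and Mfap5 in 35.3%, 56.4% and 13.6% against 10.5%, 19.2% and 16.0%, with overlap in both. At least 5 of the 9 members were found in 45.4%, 57.0% and 34.6% of SH045 fibroblasts and in 31.6%, 23.1% and 24.0% of Vehicle fibroblasts.

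Collecting duct principal cells, the epithelium that reabsorbs water through Aqp2 and drains towards the ureter, held few of these transcripts. Of 1191 such cells, with a median of 7024 UMIs, edgeR could test 0 of 9 members because none passed the filter on low counts, while 3.27% of the 10003 genes tested were called. Col6a1, Col6a2 and Col6a3 had 3 UMIs each over all 6 libraries, Fbln1 had 3, Mfap5 4 and Eln 6. Fbn1 had 15 and Fbln2 23 UMIs, each in 12 cells (1.01%, exact 95% interval 0.52% to 1.75%, counting error only), against 0.56% and 0.32% of macrophages. Markers of fibroblasts summed to 8.50 to 41.0 CPM in SH045 and 5.77 to 38.0 CPM in Vehicle collecting duct, with 2 of 10 at 0.

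Ltbp2 was the member with the most collecting duct UMIs, 26 in 14 cells (1.18%, exact 95% interval 0.64% to 1.96%). That share lies above the 0.15% of macrophages and the 0.095% of thick ascending limb cells, the latter at a median of 6286.5 UMIs. Its level was 0.953, 0.359 and 4.25 CPM with SH045 and 5.75, 3.85 and 4.36 CPM with Vehicle. SH045 library 3 stood at the Vehicle level, and libraries 1 and 2 rest on 2 UMIs and 1 UMI. With classes taken from clusters in place of single cells, Ltbp2 passed the filter and was called lower with SH045 (−2.68 ± 0.58, edgeR adjusted p = 0.0104).

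In injured tubule cells, named from Havcr1 and related markers, Ltbp2 was found in 42 of 1174 cells (3.58%, exact 95% interval 2.59% to 4.81%) at a median of 7157 UMIs. Its level was 2.90, 4.13 and 2.38 CPM with SH045 and 4.45, 6.12 and 7.71 CPM with Vehicle. The highest SH045 library was just below the lowest Vehicle library, and the 52 UMIs behind these values did not pass the filter for a test. Of the genes tested in that class, 8.17% had every SH045 library below every Vehicle library.

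The change of a member in fibroblasts was also tested against its change in collecting duct, with the mouse as a block. No member passed the filter on low counts in gated collecting duct cells, so all 9 entered this test through their fibroblast counts. edgeR called 0 of 9 members and 0.26% of all 10365 genes, and 0 members had an unadjusted p under 0.05. With so few collecting duct UMIs, this cannot show that the changes are alike. For Ltbp2 the fibroblast change exceeded that in collecting duct by 1.43 ± 0.75 on the log2 scale (edgeR adjusted p = 0.659). That value was 2.87 ± 0.81 without SH045 library 3 (edgeR adjusted p = 0.0393) and 2.67 ± 0.56 with classes from clusters (edgeR adjusted p = 0.0130). Without library 3, the SH045 side rests on the few collecting duct UMIs of Ltbp2 given above. For Mfap5, Fbln1 and the collagen VI chains the difference rests on 3 or 4 collecting duct UMIs and carries little weight.

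Fbln2, Eln and Fbn1 were the members measured in endothelium, where they belong to the matrix of vessel walls. Fbln2 stood at 113, 303 and 185 CPM in SH045 and 162, 388 and 133 CPM in Vehicle endothelium, with full overlap (−0.28 ± 0.57, edgeR adjusted p = 0.879). The changes of Fbn1 (−0.72 ± 0.38, edgeR adjusted p = 0.391) and Eln (0.14 ± 0.79, edgeR adjusted p = 0.956) did not pass either. Thus edgeR called 0 of 3 members, against 0.643% of all genes, and 0 had an unadjusted p under 0.05. In macrophages edgeR tested Col6a3, Fbn1 and Fbln2 and called 0 of 3, against 10.9% of all genes, with 0 at an unadjusted p under 0.05. In the other 8 classes tested, no member passed the filter on low counts.

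Pericytes and smooth muscle cells, 79 in all and 7 to 23 per library, were too few to test. Col6a3 stood at 1053, 941 and 1636 CPM in SH045 and 317, 847 and 755 CPM in Vehicle cells, and Fbn1 at 277, 432 and 316 against 93.2, 199 and 129 CPM. In both genes each SH045 library was above each Vehicle library, as for 4.33% of the 1040 genes past the filter on low counts in this class and for 2 of the 5 members past it, whereas Col6a1 overlapped (469, 498 and 465 against 168, 648 and 145 CPM). The 10 fibroblast markers stood in these cells at 14812, 14108 and 10618 CPM with SH045 and 3487, 9566 and 5881 CPM with Vehicle, also without overlap, and with 0 of 10 at 0 in SH045 and 2 in Vehicle. The 8 markers of the class itself stood at 16611 to 18019 CPM with SH045 and 9268 to 16357 CPM with Vehicle. Their part in the members' values was not tested. None of the 28 clusters was named for this class, so the clusters give no check on these 79 cells. Summed with the fibroblasts, which was tried after the data were seen, Col6a1 and Col6a2 were called (edgeR adjusted p = 0.0462 and 0.0100). They were among 17 genes called of 6300 tested.

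Partner genes were tested 61 times over 10 other classes, and 2 of these tests passed. Emilin1 rose in macrophages, as the only call among 14 partners tested where 10.9% of all genes were called (15.5 against 9.02 CPM, 0.61 ± 0.16, edgeR adjusted p = 0.0341). Efemp1, a fibulin related to Fbln1, fell in intercalated cells, as 1 of 6 partners tested (38.9 ± 6.82 against 72.0 ± 2.47 CPM, SD, n = 3 each; −0.91 ± 0.19, edgeR adjusted p = 0.0095), a class in which 2.05% of all genes were called.

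Levels were compared on a log2 scale over the 72 sums of 12 classes in 6 libraries. The summed level of the 3 collagen VI genes was most like those of Col1a1 (Pearson r = 0.96), Tmem45a (0.95) and Lox (0.95). That of the other 6 members was most like those of Fkbp10 (0.93), Fstl1 (0.92) and Tril (0.92). Sums of 1 library share its depth and its fibroblast content. Col1a1 is a marker of the fibroblast gate that made these sums, so its high place is no check.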

How the data were processed

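The authors deposited 1 matrix of UMI counts, not normalized, for each library. Per the submitters' processing notes the build was mm10; an aligner, annotation or cell-calling rule is not given in the sources used here. In each library the poorest deposited barcode held between 2166 and 3175 UMIs, so a minimum had been applied.

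Barcodes with at least 200 genes and at most 50% mitochondrial UMIs were kept. A cell got the class whose markers it held at a share of at least 30%, where no class of another lineage reached more than 80% of that share; 21217 cells were classed. These limits were set after the data were seen. Doublets were not removed in the main analysis. Clusters for the alternative came from scanpy 1.11.5 and igraph 0.11.9 (2000 variable genes without the members, 30 components, 15 neighbours, resolution 1.0, 28 clusters).

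UMIs were summed per library and class and compared with edgeR 4.0.16 under R 4.3.3 (TMM factors, filterByExpr, robust quasi-likelihood test, two-sided, Benjamini-Hochberg over all genes of a class, limit 0.05), tested on simulated data first. A class needed 20 cells in each library; fibroblasts were tested although Vehicle library 1 held 19. CPM are UMI counts scaled to a common total per sum. Cells are not replicates, and n is the number of mice. Intervals are exact (Clopper-Pearson). Alternatives were DESeq2 1.42.0, other filters, gates, clusters and depths, a replicate block, a length trend and each library left out. Positions are from GENCODE M21. RefSeq promoter entries matched 7 of the 9 members; those of Mfap5 and Eln were not used here.

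All 9 members are named, as are the 4 partner genes with the smallest p in fibroblasts and in whole-library sums, partners called elsewhere (chosen after their values were seen) and the 3 most alike genes. Members and lists were chosen with earlier results of these data known.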

Additional observations from a re-analysis of the deposited data

How the results depend on the processing

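In whole-library sums 7 members were called, among 713 of 16532 genes. Without the low-count filter 4 were called, among 1322 of 30925 genes. Without gated fibroblasts it was 2 (114 of 16411 genes), and 0 without fibroblasts, pericytes and smooth muscle (57 of 16355 genes). DESeq2's test called 9, among 1869 of 17109 genes. Leaving out 1 library gave 3 to 8, among 119 to 597 genes called. In fibroblasts 1 member was called, among 7 of 5866 genes. The count was 2 by DESeq2's test (35 of 6217 genes), 4 without the low-count filter (163 of 17268 genes) and 2 together with pericytes and smooth muscle (17 of 6300 genes). It was 0 with the top 5% of Scrublet scores removed, with the length trend removed, without adventitial cells, or with both of the last changes. In those fits 4, 5, 3 and 2 genes were called, in that order. Adventitial cells here means fibroblasts with a UMI of any of the 6 genes of that list, most often Cd248. Leaving out 1 library gave 0 to 4, among 0 to 83 genes called. Fewer cells or genes enter some of these fits, and otherwise the cause was not tested. In collecting duct the count was 1 with classes from clusters (467 of 9957 genes called). For the difference between the classes it was 1 with clusters (68 of 10880 genes) and 0 to 1 with 1 library left out (14 to 119 genes). In detection it was 5 of 9 without thinning, with Fbln2 in the other direction, and no share over all genes was computed there. Leaving fibroblasts or stroma out, adding pericytes, and the joint length and adventitial setting were chosen after seeing the data. The log2 change of Col6a2 in fibroblasts kept its direction in 18 of 18 alternatives (0.90 to 1.64) and was called in 10.

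Some directions turned. Ltbp2 in whole-library sums was −0.72 without fibroblasts and −1.02 without pericytes and smooth muscle as well. Col6a3 in fibroblasts was 0.0073 without the filter, 0.046 with clusters, 0.17 with pericytes, 0.47 without adventitial cells, 0.20 with the length trend removed too, and −0.39 to 0.15 with 1 library left out. With adventitial cells and length trend removed, Fbn1 was −0.082 and Fbln2 −0.19. Ltbp2 in fibroblasts was 0.046 with pericytes and −0.60 to 0.19 with 1 library left out. The detection difference in percentage points was 8.14 for Col6a3 without adventitial cells, and for Fbln2 −10.6 unthinned and −1.08 without adventitial cells.

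With replicate number as a block, 7 members were called in whole-library sums and 1 in fibroblasts. Correlations of same-numbered libraries were 0.03, 0.09 and 0.26 in whole-library sums and −0.05, −0.03 and 0.03 in fibroblasts. Those of differently numbered libraries lay between −0.20 and 0.12 in whole-library sums and between −0.055 and 0.098 in fibroblasts. Whether the numbers pair the mice cannot be told from these values. Vehicle fibroblasts were few, at 70 cells.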
